A study of Mus musculus with 13 samples.

Results

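A set of genes of fatty acid uptake and lipid droplets were followed in mouse liver with Sel1l targeted for deletion in hepatocytes. They were Pparg, Cd36, Vldlr, Plin2, Plin4, Plin5, Cidea, Cideb, Cidec and Fabp5. They make up 10 of the 18820 genes that the array annotation names by a single symbol. The genes were listed by name, with earlier results of these data known, so the shares of all features given beside them are descriptions. Each was read from the array feature with exactly 1 gene symbol and the highest mean over the 13 livers. Fabp5 had 3 such features and the other 9 genes had 1 each. Sel1L holds the ligase Hrd1 in place at the endoplasmic reticulum, where the pair marks misfolded proteins for degradation.

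All mice were on the C57BL/6J background. The labels name the groups as wildtype (n = 3) and LiSel1lKO (n = 4) at 3 weeks of age, and as wildtype (n = 3) and LiSel1lKO (n = 3) at 9 weeks. LiSel1lKO mice were Sel1Lflox/flox mice crossed with the B6.Cg-Tg(Alb-Cre)21Mgn/J line, in which the albumin promoter drives Cre in hepatocytes. How far other liver cells keep the gene was not measured here. Whether the wildtype mice carried the floxed alleles or Cre, and which sex was used, is not stated in those labels. All livers were taken after a morning fast of 5 to 6 hours. RNA was hybridised to 1 whole-transcript Affymetrix array per liver, and the values are log2 expression from robust multi-array averaging (RMA), which puts the arrays on a common scale. A difference of 1 on this scale is a 2-fold difference. Levels of different genes come from different probes and are not set against each other.

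Excess fatty acids are stored in hepatocytes as triglyceride in lipid droplets. The nuclear receptor PPARγ, encoded by Pparg, is the master regulator of fat storage in adipocytes, stays low in lean liver and is known to rise in fatty liver. It binds DNA with RXR at a direct repeat called DR1. Among its known targets are Cd36, which encodes a fatty acid uptake receptor, and Cidec, which encodes a protein that fuses and enlarges droplets. The VLDL receptor, encoded by Vldlr, takes up triglyceride-rich lipoproteins. It is known to be induced in liver by ATF4 in the stress response to misfolded protein. Perilipins coat the droplet, and the CIDE proteins act at its surface.

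The stretches below show the promoter sequence of the uptake receptor that differed most between genotypes, and the sites in the other promoters that matched either element. Promoter windows from RefSeq (build GRCm38.p6, 250 bases before to 50 after a start site) were found for 8 of the 10 genes, as 13 windows. The windows were searched for 2 elements on both strands. DR1 was searched as AGGTCANAGGTCA, allowing 2 mismatches among its 12 fixed bases. The composite element of ATF4 and CHOP was searched as TGATGNAA with no mismatch. No match of one element overlapped a match of the other. DR1 was found in 2 of the 13 windows, those of Cd36 and Plin2, against 3.86% of all 32851 windows. The ATF4 element was found in 1 window, that of the start of Vldlr further downstream, against 3.97% of all windows. All 3 matches lie on the strand opposite to the gene. A match is a description of these letters and was not tested for binding. Capitals mark the match, and each sequence is written 5′ to 3′ on the strand of the gene. The Cd36 stretch holds the 250 bases before the start (chr5:17835897-17836146, minus strand), with the match 63 to 51 bases before it. The Plin2 stretch (chr4:86670263-86670292, minus strand) has its match 225 to 213 bases before the start. The Vldlr stretch (chr19:27216809-27216838, plus strand) has its match 200 to 193 bases before the start.
Cd36: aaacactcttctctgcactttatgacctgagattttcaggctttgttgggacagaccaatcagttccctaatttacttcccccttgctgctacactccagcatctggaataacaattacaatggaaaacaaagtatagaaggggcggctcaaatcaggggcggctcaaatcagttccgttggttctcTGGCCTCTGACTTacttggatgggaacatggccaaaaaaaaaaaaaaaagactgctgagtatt
Plin2: agctttcaGGACCCCTGACCTaagtcagac
Vldlr: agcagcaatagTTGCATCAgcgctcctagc

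Before the genes, the labels and the tissue were checked. Sel1l stood between 8.70 and 8.94 in the 6 wildtype livers and between 7.10 and 8.42 in the 7 LiSel1lKO livers. It was thus lower in each LiSel1lKO liver than in any wildtype liver. The 3-week LiSel1lKO livers were uneven (8.42, 7.90, 7.20 and 7.10, SD 0.62), with replicate 1 nearest to wildtype. At 9 weeks the LiSel1lKO livers were closer together (SD 0.18). How much Sel1l was left in hepatocytes was not measured. All 8 measured hepatocyte markers were high in every liver (10.62 to 13.37). Of the 6 measured white adipocyte markers, 4 had means below the median of all values on the arrays (3.78), and Adipoq, the adipocyte hormone adiponectin, stood between 1.99 and 2.25 in all 13 livers. The mean level of the 6 white adipocyte markers lay between 3.49 and 3.77, with overlapping ranges at 9 weeks (3.53 to 3.67 in wildtype, 3.55 to 3.68 in LiSel1lKO). In whole liver, fewer cells of a type and less RNA per cell cannot be told apart.

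The comparison at 9 weeks sets LiSel1lKO against wildtype liver in young adults. Both receptors at the cell surface rose. Of the 10 genes, Cd36 and Vldlr passed the threshold of an adjusted p under 0.05 and none fell, where 1.52% of all 35556 features were called and 1.03% were called higher. In 5 of the 10 (Pparg, Cd36, Vldlr, Plin5 and Cidec) every LiSel1lKO liver lay above every wildtype liver, and in none below, against 9.89% of all features higher without overlap and 18.4% without overlap in either direction. At an unadjusted p under 0.05 there were 5 of the 10 (Pparg, Cd36, Vldlr and Cidec higher, Cideb lower), against 13.9% of all features. The median difference of the 10 genes was 0.525, and that of all features -0.00707. Differences were tested with limma in a fit of the 4 group means to the 13 livers, with Benjamini-Hochberg adjustment across the whole array. Every adjusted p below comes from that fit.

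**Figure D1:**
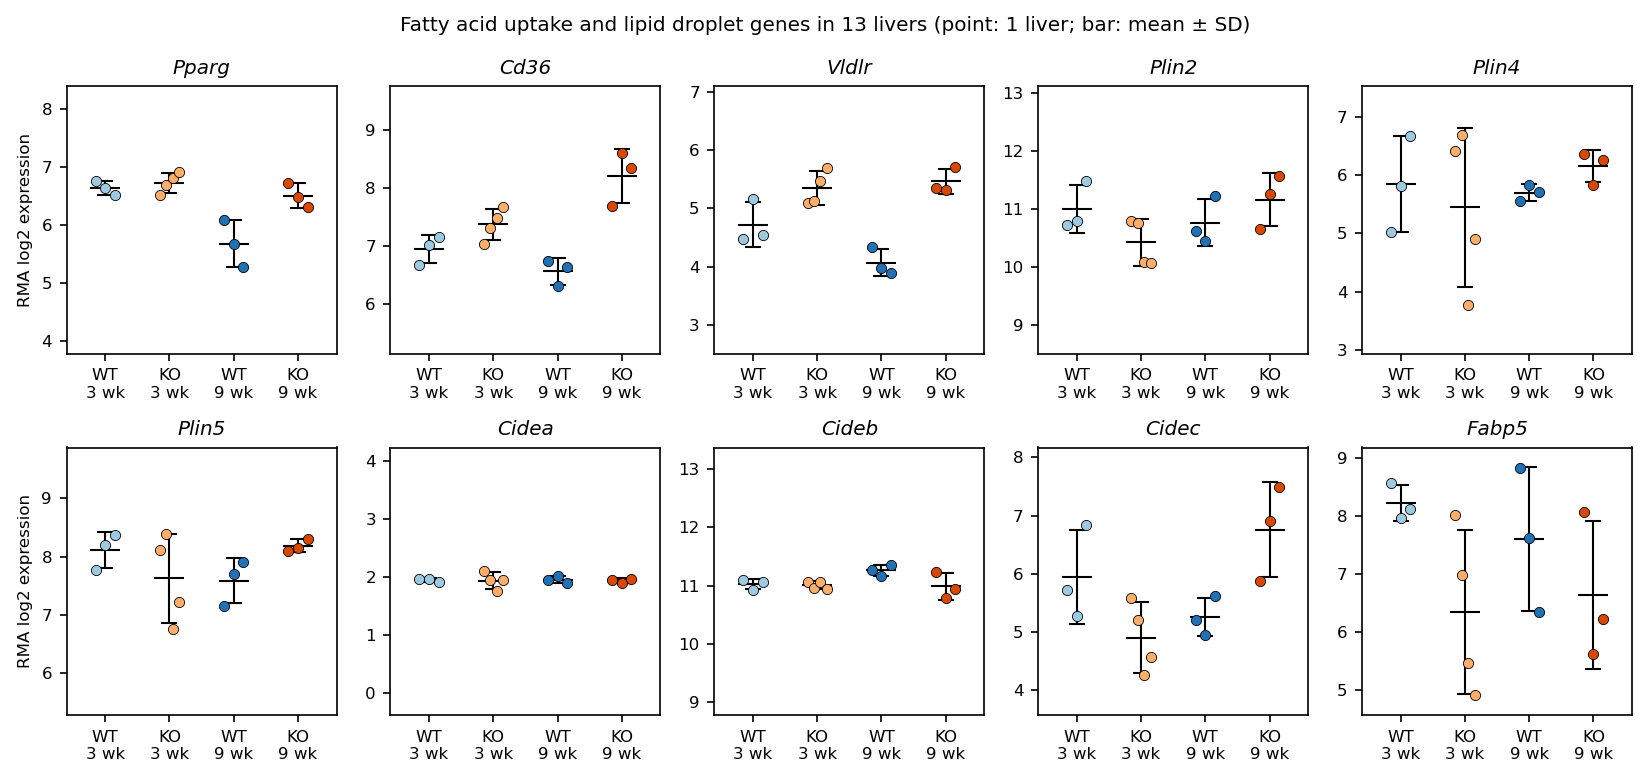
RMA log2 expression (vertical axes, each spanning the same log2 range) of the 10 genes in wildtype (WT) and LiSel1lKO (KO) livers at 3 and 9 weeks. Points are single livers, and bars show the mean ± SD of 3 or 4 livers. At 9 weeks the KO points of Cd36, Vldlr, Pparg, Plin5 and Cidec lie above all WT points, while Cidea stays between 1.75 and 2.10 in every liver.

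Cd36 stood at 6.75, 6.31 and 6.65 in the 9-week wildtype livers and at 7.70, 8.60 and 8.34 in the LiSel1lKO livers. The groups were nearly 1 log2 unit apart at their closest, with replicate 1 the lowest of the LiSel1lKO livers. The difference was 1.64 ± 0.23 (SE), a 3.12-fold rise (adjusted p = 0.0121). Within plate columns 5 and 7, the array positions given in the sample descriptions, it was 1.71 and 1.90. Each of these rests on a single liver of one genotype. The call ended without wildtype replicate 2 (adjusted p = 0.0533), LiSel1lKO replicate 2 (0.0554) or LiSel1lKO replicate 3 (0.0632), while the difference stayed between 1.45 and 1.90. It also ended in the limma fit of only the livers compared (adjusted p = 0.152).

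Macrophages also express Cd36, Plin2 and Fabp5, and their markers varied between the LiSel1lKO livers at 9 weeks. The mean level of 11 Kupffer cell and macrophage markers was 7.32, 7.78 and 7.62 in wildtype and 6.89, 8.00 and 7.99 in LiSel1lKO liver, with 0 of 11 called. LiSel1lKO replicate 1 thus lay below every wildtype liver and replicates 2 and 3 above. Replicate 1 was also the lowest LiSel1lKO liver for Cd36, Cidec and Plin2. For Fabp5 replicate 1 was instead the highest of them, at 8.06 against 5.62 and 6.23. Without it the differences were 1.90 for Cd36 (adjusted p = 0.00187), 1.94 for Cidec (0.0600) and 0.64 for Plin2 (0.388). Over the whole array that fit called 1178 features, against 539 with all livers. The part of macrophages in these differences was not tested.

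Vldlr stood at 4.34, 3.98 and 3.89 in wildtype and at 5.35, 5.32 and 5.72 in LiSel1lKO liver at 9 weeks. The LiSel1lKO livers were close together and all above wildtype. The difference was 1.39 ± 0.22 (SE), 2.63-fold (adjusted p = 0.0161). It was 1.55 and 1.21 within plate columns 5 and 7. The wildtype levels lie just above the array medians (3.72 to 3.81), and the table has no detection calls, so the fold is a lower bound if they are background. Without wildtype replicate 2 or 3, or LiSel1lKO replicate 2 or 3, the adjusted p was 0.0642, 0.0512, 0.0602 and 0.0803. The difference then lay between 1.26 and 1.46. In the limma fit of only the livers compared the adjusted p was 0.132.

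Pparg, the nuclear receptor, stood at 6.08, 5.68 and 5.27 in wildtype and at 6.73, 6.48 and 6.31 in LiSel1lKO liver at 9 weeks. The highest wildtype liver stayed below the lowest LiSel1lKO liver. The difference was 0.83 ± 0.19 (SE), 1.78-fold, and missed the threshold (adjusted p = 0.0551). It was 0.84 and 0.81 within plate columns 5 and 7. Of 23 alternatives 18 left it uncalled and 5 called it, with adjusted p between 0.0253 and 0.248. With 1 liver left out it was called in 1 of 13 fits, the one without wildtype replicate 1 (1.03, adjusted p = 0.0406), and the difference lay between 0.63 and 1.03. The feature does not tell the start sites of Pparg apart.

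Cidec, the droplet fusion factor, stood at 5.21, 4.95 and 5.61 in wildtype and at 5.88, 6.90 and 7.49 in LiSel1lKO liver at 9 weeks. The groups did not overlap, but the LiSel1lKO livers spread over more than 1.5 log2 units, with replicate 1 close to wildtype. The difference was 1.50 ± 0.49 (SE), 2.83-fold in size (adjusted p = 0.174), and its 95% confidence interval ran from 0.43 to 2.57. Cideb, which helps load triglyceride onto VLDL in hepatocytes, stood at 11.27, 11.17 and 11.36 in wildtype and at 11.24, 10.79 and 10.94 in LiSel1lKO liver. Only replicate 1 of the LiSel1lKO livers reached the wildtype range, and the difference was -0.28 ± 0.11 (SE; adjusted p = 0.277). Without that liver Cideb was called (-0.40, adjusted p = 0.0470), in a fit that called 1178 features of the array against 539 with all livers. Cidea, the member of brown fat, lay between 1.75 and 2.10 in all 13 livers, below every array median. Its difference of -0.01 ± 0.09 (SE) at 9 weeks concerns a level that may be background.

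No perilipin passed the threshold. Plin5, which couples droplets to mitochondria, stood at 7.15, 7.70 and 7.90 in wildtype and at 8.09, 8.15 and 8.31 in LiSel1lKO liver at 9 weeks. The groups did not overlap, and the LiSel1lKO livers were the tighter group, yet the difference of 0.60 ± 0.37 (SE) did not pass (adjusted p = 0.527). Plin2, the main droplet coat of hepatocytes, stood at 10.63, 10.45 and 11.22 against 10.66, 11.25 and 11.56. These ranges overlapped widely (0.39 ± 0.31, SE; adjusted p = 0.649). Plin4, a perilipin best known from adipocytes, stood at 5.56, 5.84 and 5.71 against 6.36, 5.84 and 6.26, with a difference of 0.45 ± 0.66 (SE; adjusted p = 0.834) and an interval from -0.99 to 1.89. That interval also covers a difference as large as that of Cd36 or Vldlr. Its width does not come from the 9-week livers alone, because the fit pools the scatter within all 4 groups. Plin4 scattered most in the younger mice (SD 1.37 in LiSel1lKO, 0.83 in wildtype) and far less in the older ones (0.28 and 0.14). Plin5 likewise had its largest SD in 3-week LiSel1lKO liver (0.76) and its smallest in 9-week LiSel1lKO liver (0.11).

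Fabp5, a cytosolic fatty acid carrier, varied more between livers of a group than between the genotypes at 9 weeks. It stood at 8.83, 7.62 and 6.35 in wildtype and at 8.06, 5.62 and 6.23 in LiSel1lKO liver. Both groups spanned more than 2 log2 units and overlapped, and the difference was -0.96 ± 0.86 (SE; adjusted p = 0.696). The other 2 features of Fabp5 gave -1.05 and -0.11 in this comparison. Over the 13 livers they correlated with the feature used at r = 0.999 and 0.919, and the last had a mean of 3.71, below the array medians.

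**Figure D2:**
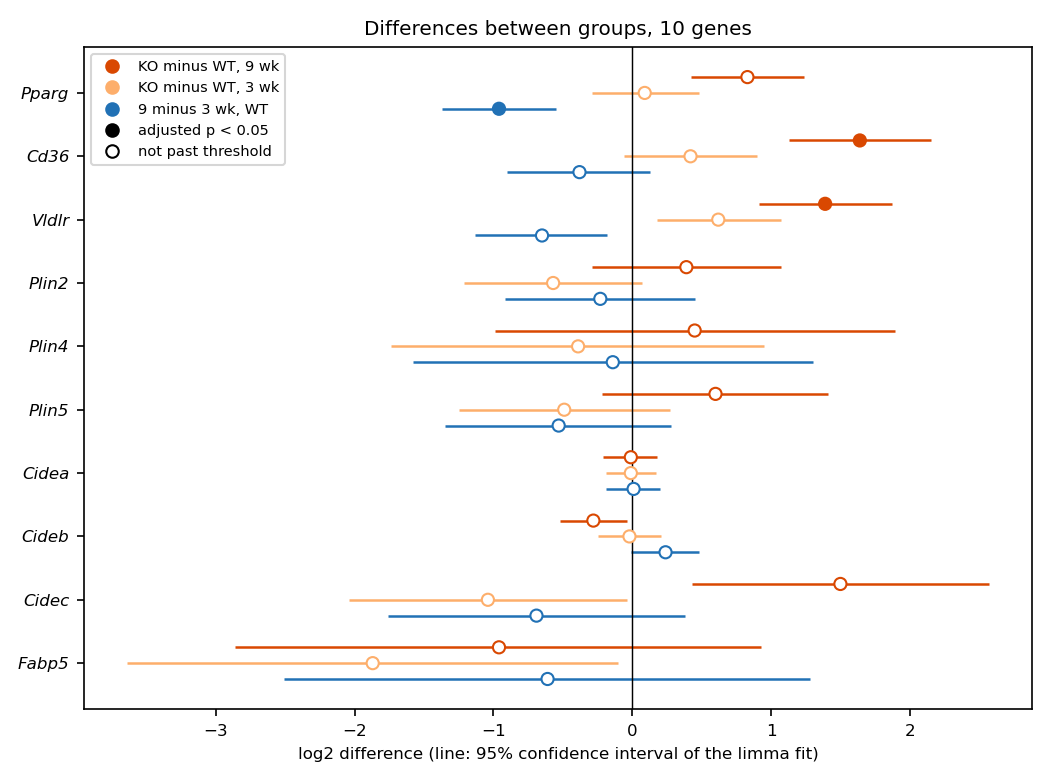
Log2 differences (horizontal axis) of the 10 genes for KO minus WT at 9 weeks, KO minus WT at 3 weeks, and 9 minus 3 weeks in WT. Points are limma estimates, lines are 95% confidence intervals, and filled points passed an adjusted p of 0.05. Only Cd36 (1.64) and Vldlr (1.39) at 9 weeks and Pparg (-0.96) in WT from 3 to 9 weeks are filled. The lines of Plin4 and Fabp5 are the widest.

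The comparison at 3 weeks asks the same around weaning, in LiSel1lKO livers with uneven Sel1l (7.10 to 8.42). No gene of the 10 passed the threshold in limma, where 0% of all features were called. At an unadjusted p under 0.05 there were 3 of the 10 (Vldlr, Cidec and Fabp5), against 7.41% of all features, and none of the 10 had groups without overlap, which 7.41% of all features had. The median difference was -0.207, with 3 genes above 0 and 7 below, and that of all features was 0.00378.

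Vldlr and Cd36 had slightly higher means in LiSel1lKO liver at 3 weeks, neither of them called, while the fatty acid carrier Fabp5 had a lower one. Vldlr stood at 4.47, 5.16 and 4.54 in wildtype and at 5.10, 5.12, 5.47 and 5.70 in LiSel1lKO liver. Only wildtype replicate 2 reached the LiSel1lKO range, and the difference was 0.62 ± 0.20 (SE; adjusted p = 0.541). Within plate columns 5 and 7 it was 0.90 and 0.13. Column 7 held only wildtype replicate 2 for that genotype. Cd36 stood at 6.68, 7.02 and 7.16 against 7.04, 7.31, 7.49 and 7.67. Replicate 1 of the LiSel1lKO livers fell within the wildtype range (0.42 ± 0.22, SE; adjusted p = 0.713). Pparg stood at 6.75, 6.64 and 6.51 against 6.51, 6.68, 6.81 and 6.91, a difference of 0.09 ± 0.17 (SE) with an interval from -0.29 to 0.48.

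Most droplet genes had lower means in LiSel1lKO liver at 3 weeks, and the 4 LiSel1lKO livers were far apart. Cidec stood at 5.72, 5.28 and 6.84 in wildtype and at 5.58, 5.21, 4.25 and 4.57 in LiSel1lKO liver. Replicates 2, 3 and 4 lay below all wildtype livers, replicate 2 only just, and replicate 1 lay within their range (-1.04 ± 0.45, SE; adjusted p = 0.655). Plin2 stood at 10.72, 10.80 and 11.48 against 10.79, 10.76, 10.09 and 10.07. Replicates 3 and 4 were again the low livers (-0.57 ± 0.29, SE; adjusted p = 0.703).

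Plin5 stood at 7.77, 8.20 and 8.37 in wildtype and at 8.12, 8.39, 6.76 and 7.22 in LiSel1lKO liver at 3 weeks. Plin4 stood at 5.03, 5.82 and 6.68 against 6.42, 6.70, 3.77 and 4.91. In both perilipins replicate 1 lay within the wildtype range, replicate 2 just above it, and replicates 3 and 4 below every wildtype liver. The differences were -0.49 ± 0.35 and -0.39 ± 0.61 (SE; adjusted p = 0.785 and 0.914). Without replicates 3 and 4, which was tried after the values were seen, they were 0.14 and 0.72. That fit removes the livers with the least Sel1l (7.20 and 7.10) and keeps those with the most (8.42 and 7.90).

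Fabp5 had the largest difference of the 10 genes at 3 weeks. It stood at 8.57, 7.97 and 8.11 in wildtype and at 8.01, 6.98, 5.47 and 4.92 in LiSel1lKO liver. Replicate 1 matched wildtype and the other 3 lay below it, and the difference of -1.87 ± 0.81 (SE) did not pass (adjusted p = 0.653). Replicates 3 and 4 also had the least Sel1l of that group, 7.20 and 7.10 against 8.42 and 7.90. Cideb (-0.02 ± 0.10, SE) and Cidea (-0.01 ± 0.08) had the smallest differences. Kupffer cells and macrophages also express Cd36, Plin2 and Fabp5. The mean level of their 11 markers was 7.99 to 8.09 in wildtype and 7.52 to 7.81 in LiSel1lKO liver. Of the 11 differences 0 were called and 11 lay below 0. The means of Plin2 and Fabp5 were lower as well, but that of Cd36 was higher (0.42). Among LiSel1lKO livers, replicate 4 had the highest marker level (7.81). It had the lowest Fabp5 (4.92) and Plin2 (10.07) and the highest Cd36 (7.67). The mean level of 8 markers of sinusoidal endothelium was 8.20 to 8.26 against 7.93 to 8.20 (6 of 8 below 0, 0 called), and that of 7 stellate cell markers was 7.78 to 8.02 against 7.39 to 7.91 (7 of 7 below 0, 0 called). The part of these cells in the 3-week differences was not tested.

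Whether the genotype effect itself differed between the ages was tested as an interaction. None of the 10 genes passed in limma, where 0% of all features were called. At an unadjusted p under 0.05 there were 5 of the 10, all with a positive value (9-week minus 3-week effect), against 9.73% of all features. Cidec had the largest value, 2.54 ± 0.67 (SE; adjusted p = 0.290), with LiSel1lKO means below wildtype at 3 weeks and above it at 9 weeks. Plin2 also had means on opposite sides of wildtype at the 2 ages (-0.57 and 0.39), the 9-week difference being the smaller in size. For Cd36 it was 1.22 ± 0.32 (adjusted p = 0.290), for Plin2 0.96 ± 0.43 (0.501), for Vldlr 0.77 ± 0.30 (0.448) and for Pparg 0.74 ± 0.26 (0.402). A difference between the effects at the 2 ages was thus not established for any of them. Without replicates 3 and 4 of the 3-week LiSel1lKO livers, those with the least Sel1l, 2 of the 10 were called at 9 weeks. In the other genotype comparisons 0 were called. These are the counts found with those livers.

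The change of wildtype liver from 3 to 9 weeks, called ageing here, gives the level against which the 9-week effect is read. This span runs from around weaning to young adult life, and age was not separated from other changes of that time. Pparg fell from 6.75, 6.64 and 6.51 at 3 weeks to 6.08, 5.68 and 5.27 at 9 weeks, and the age groups did not overlap. The difference was -0.96 ± 0.19 (SE), with an adjusted p of 0.0272. It was the 1 gene of the 10 that passed, where 1.89% of all features were called and 1.12% were called lower. The call ended without any 1 of wildtype replicates 1 (adjusted p = 0.0985), 2 (0.0741) or 3 (0.0580) at 3 weeks or 2 (0.0887) or 3 (0.0711) at 9 weeks. It also ended with plate column as a block (0.0529) and in the limma fit of only the livers compared (0.153). Within plate columns 5 and 7 the difference was -0.95 and -0.97.

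Vldlr was lower at 9 than at 3 weeks in wildtype without overlap (-0.65 ± 0.22, SE; adjusted p = 0.192), and Cideb was higher without overlap (0.24 ± 0.11; adjusted p = 0.379). These and Pparg were the 3 of 10 genes without overlap, against 17.8% of all features. Some markers of other liver cells also fell over these ages. Of 8 markers of sinusoidal endothelium, 3 fell (Stab2, Lyve1 and Oit3), and their mean level went from 8.20 to 8.26 at 3 weeks to 7.83 to 7.94 at 9 weeks. The mean level of the 7 stellate cell markers was 7.78 to 8.02 at 3 weeks and 7.08 to 7.67 at 9 weeks, with 1 called (Reln, lower). That of the 11 Kupffer markers was 7.99 to 8.09 and then 7.32 to 7.78, with 1 called (Marco, lower). The part of these cells in the fall of Pparg was not tested. Between genotypes at 9 weeks the endothelial range was 7.83 to 7.94 against 7.84 to 7.95, and the stellate range 7.08 to 7.67 against 7.24 to 7.48.

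In LiSel1lKO liver no fall of Pparg with age was called. It stood at 6.51, 6.68, 6.81 and 6.91 at 3 weeks and at 6.73, 6.48 and 6.31 at 9 weeks, with ranges that overlapped (-0.22 ± 0.17, SE; adjusted p = 0.767). Set against 3-week wildtype, the 9-week LiSel1lKO livers differed in Pparg by -0.13 ± 0.19 (SE), with an interval from -0.54 to 0.28. These contrasts were added after the values were seen, and they share livers with the tests above. Vldlr differed by 0.11 ± 0.20 (SE) between ages in LiSel1lKO liver. For Cd36, all 9-week LiSel1lKO livers lay above all 3-week LiSel1lKO livers (0.83 ± 0.22, SE; adjusted p = 0.194) and above 3-week wildtype (1.26 ± 0.23; adjusted p = 0.0356). Cidec differed by 1.85 ± 0.45 (SE; adjusted p = 0.163) between ages in LiSel1lKO liver, also without overlap. For comparison, 0.155% of all features were called between ages in LiSel1lKO liver, and 1.21% between 9-week LiSel1lKO and 3-week wildtype liver. Of the 10 genes, 0 and 1 were called, the latter being Cd36, and 0.706% of all features were called higher in that contrast. Cd36 and Cidec were the 2 of 10 genes higher without overlap between ages in LiSel1lKO liver, against 4.67% of all features.

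The order of the group means followed from this. Cd36 and Vldlr were highest in 9-week LiSel1lKO liver, then in 3-week LiSel1lKO, 3-week wildtype and 9-week wildtype liver. For Cd36 the step between both 3-week groups and that between both wildtype groups lay within overlapping values. For Vldlr only the step between the 3-week and the 9-week wildtype livers was free of overlap. Pparg was highest in 3-week LiSel1lKO liver, followed closely by 3-week wildtype and 9-week LiSel1lKO liver, which overlapped with each other, and was lowest in 9-week wildtype liver. Plin2, Plin4 and Cidec were highest in 9-week LiSel1lKO and lowest in 3-week LiSel1lKO liver.

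Within groups, the droplet genes varied together from liver to liver, in 2 pairs. After the group means were removed, Plin2 and Cidec correlated at r = 0.932 (rho = 0.923) over the 13 livers, and at 0.932 without the 2 livers farthest from the median of Plin2. Plin4 and Plin5, which are neighbours on chromosome 17, correlated at r = 0.916 (rho = 0.830), and at 0.795 without the 2 livers farthest in Plin4. These were the only 2 of 45 pairs above 0.8, and the median pair had r = -0.0365. Cd36 and Vldlr, the genes called at 9 weeks, correlated at 0.814 over the livers as they are but at 0.454 without group means. Pparg and Plin2 ran in opposite directions within groups (r = -0.775, rho = -0.830). All genes of a liver share its RNA and its array, so these values are descriptions.

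**Figure D3:**
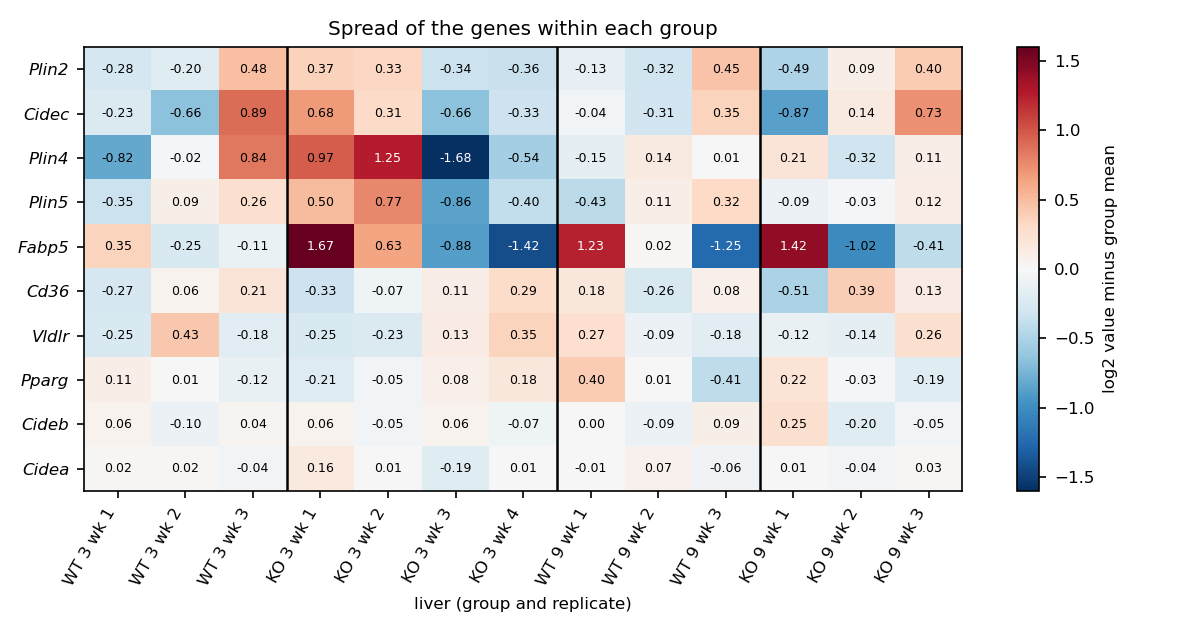
Log2 value minus the group mean (colour and printed number) for the 10 genes (rows) in the 13 livers (columns, by group and replicate; black lines part the groups). Plin2 and Cidec carry the same sign in all 13 livers. Plin4 and Plin5 are highest above their mean in KO 3 wk livers 1 and 2 and farthest below in KO 3 wk liver 3, and Fabp5 has deviations beyond 1 in 3 of the 4 groups.

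The genes most like Pparg over the 13 livers, among 10273 others with a mean above the median of all features, were Tenm3 (r = 0.959), Slco1a4 (0.930), Ubr7 (0.928) and Tmem97 (0.922). For Cd36 they were Arcn1 (r = 0.962), Arhgef2 (0.950), Tes (0.947) and Rab1a (0.945). For Vldlr they were Mageh1 (r = 0.921), Dnajc10 (0.911), Paip2b (0.907) and Denr (0.904). With group means removed the 12 values lay between 0.481 and 0.884. Such coefficients are the extremes of a long list and say nothing of shared control.

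Other genes of the pathway were read from a list that was also made with earlier results of these data known. Of 56 related genes of uptake, droplet turnover, triglyceride assembly and PPARγ partners, 49 were read from a feature with 1 symbol, and the others are not analysed here. At 9 weeks 1 of the 49 rose and 1 fell between genotypes (4.08%, against 1.52% of all features), with a median of -0.108. By group, 1 rose and 1 fell of 14 uptake genes, and 0 were called of 16 droplet coat, assembly and lipolysis genes, 10 of triglyceride assembly and 9 PPARγ partners. At an unadjusted p under 0.05 these groups held 6, 2, 2 and 2 genes, 12 of 49 in all, against 13.9% of all features. At 3 weeks and in the interaction 0 of 49 were called in limma. At an unadjusted p under 0.05 there were 7 and 6, against 7.41% and 9.73% of all features. The smallest p at 3 weeks belonged to Mttp, the transfer protein that lipidates VLDL (-0.44 ± 0.13, SE; adjusted p = 0.479), and Pnpla3, a droplet lipase (-0.65 ± 0.22; adjusted p = 0.560). In the interaction it belonged to Slc27a5 (-0.54 ± 0.14, SE; adjusted p = 0.265) and Lrp1, a lipoprotein receptor (-0.38 ± 0.11; adjusted p = 0.339).

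Lpl, the lipase that frees fatty acids from lipoproteins and works together with the VLDL receptor, was the related gene that rose. It stood at 6.10, 5.99 and 5.78 in wildtype and at 7.38, 7.20 and 6.71 in LiSel1lKO liver at 9 weeks, without overlap (1.14 ± 0.23, SE; 2.20-fold; adjusted p = 0.0378). The call held in 4 of the 13 fits that left out 1 liver, with differences between 1.00 and 1.33 and adjusted p between 0.0288 and 0.153. Of all 23 alternatives 14 lost the call. Among them were plate column as a block (0.0560), quantile normalization (0.0519) and the fit of only the livers compared (0.156). At 3 weeks Lpl was far higher, at 8.12, 8.71 and 8.87 in wildtype and 8.67, 8.39, 9.01 and 8.92 in LiSel1lKO liver. It thus fell with age in wildtype (-2.61 ± 0.23, SE; adjusted p = 0.000559) and in LiSel1lKO liver (-1.66 ± 0.22; adjusted p = 0.0196). The fall in wildtype was called in all 13 fits that left out 1 liver. The test of the difference between the falls is the interaction, 0.95 ± 0.32 (adjusted p = 0.380).

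Slc27a5, a transporter-family enzyme that joins bile acids and fatty acids to coenzyme A, was the related gene that fell. It stood at 10.47, 10.42 and 10.59 in wildtype and at 10.20, 9.85 and 9.91 in LiSel1lKO liver at 9 weeks, without overlap (-0.51 ± 0.10, SE; adjusted p = 0.0340). The call held in 4 of 13 fits that left out 1 liver, with adjusted p between 0.00548 and 0.144. Of all 23 alternatives 13 lost it, among them plate column as a block (0.0566) and the fit of only the livers compared (0.209). In wildtype ageing 2 of the 49 fell (4.08%, against 1.89% of all features). Beside Lpl this was Tm6sf2, which takes part in VLDL lipidation, from 8.56, 8.84 and 8.55 to 8.07, 8.15 and 7.89 (-0.62 ± 0.11, SE; adjusted p = 0.0171). It was not called without wildtype replicate 2 at 3 weeks (adjusted p = 0.0534) or replicate 3 at 9 weeks (0.0641). Nor was it called in the limma fit of only the livers compared (0.127) or with the replicate block (0.0525).

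**Figure D4:**
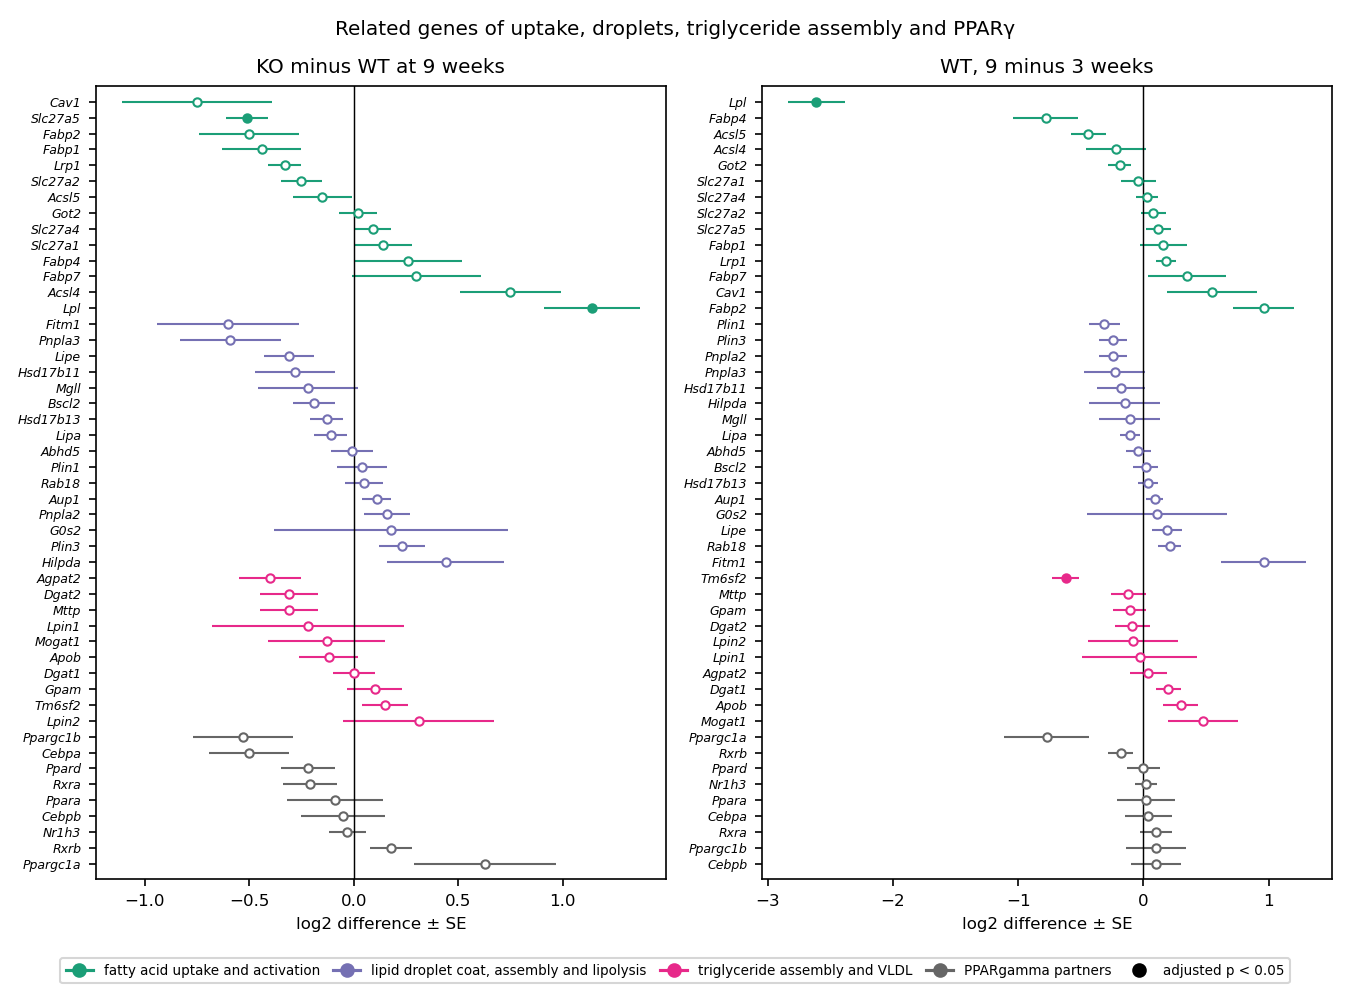
Log2 difference ± SE (horizontal axes) of the 49 related genes, for KO minus WT at 9 weeks (left) and 9 minus 3 weeks in WT (right). Colours mark the 4 groups of genes, ordered by size within each, and filled points passed an adjusted p of 0.05. Lpl and Slc27a5 are filled on the left, and Lpl (-2.61) and Tm6sf2 (-0.62) on the right.

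**Figure D5:**
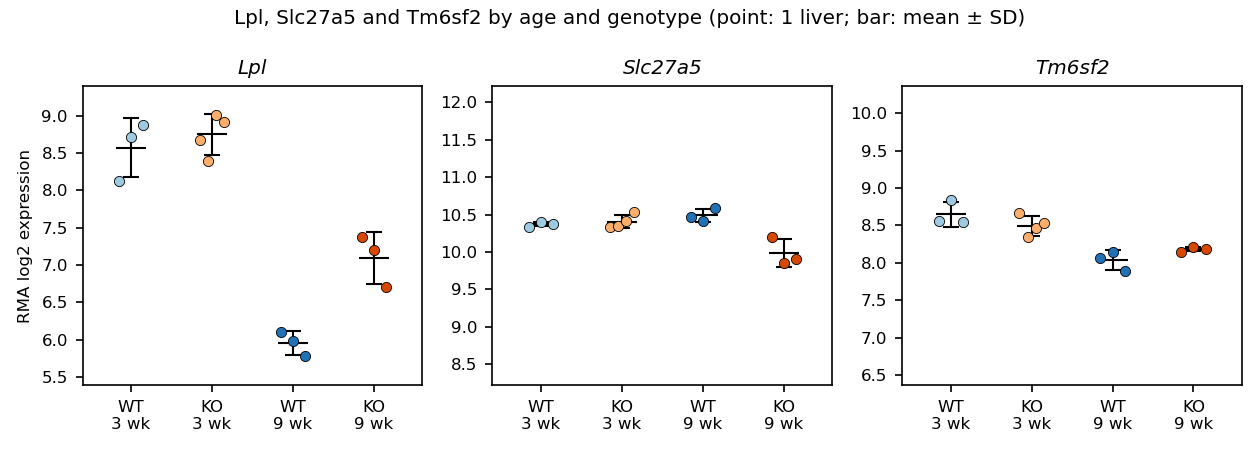
RMA log2 expression (vertical axes, each spanning the same log2 range) of the 3 related genes that passed in a comparison, in wildtype (WT) and LiSel1lKO (KO) livers at 3 and 9 weeks. Points are single livers and bars the mean ± SD of 3 or 4 livers. Lpl drops with age in both genotypes and is higher in KO than in WT at 9 weeks, and Slc27a5 is lowest in the 9-week KO livers.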

How the data were processed

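Liver RNA of 13 mice was measured on 1 array each. The deposited log2 values were made by the authors with RMA, per the submitters' processing notes. The RMA version and probe sets are not given in the sources used here. In all, it held 35556 features without missing values (array medians 3.72 to 3.81), and no columns of other samples. It gives no detection calls, and no depth applies to arrays, whose number limits the precision. The platform annotation gave 21218 features 1 symbol, 1881 several, and left 12457 unlisted.

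Sample titles gave each liver its group and number. Each comparison was fitted with limma 3.58.1 in R 4.3.3 (lmFit, eBayes, two-sided, group means over all 13 livers), and p-values were adjusted over all features. The fit was tested on simulated data. The members, the lists and the tests were chosen with earlier results of these data known. The rule for named genes took the 10 members, Sel1l, the related genes past the threshold (otherwise the 2 with the smallest p), and 4 genes most like Pparg, Cd36 and Vldlr. Marker genes and the genes without overlap were named beside them. Alternatives changed the eBayes prior, the livers or features fitted, the normalization, array weights, and blocks of plate column or replicate number, or left out single livers. The contrasts within LiSel1lKO liver and against 3-week wildtype liver, and the fit without 2 livers, were added after the values were seen.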

Additional observations from a re-analysis of the deposited data

Results flagged for a closer look

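Cidec was flagged by a rule on genotype effects that differ between 9 and 3 weeks. Every LiSel1lKO liver lay above the wildtype mean at 9 weeks and every one below it at 3 weeks. The difference of the effects was 2.54 on the log2 scale (unadjusted p = 0.00274, adjusted p = 0.290 in limma over all features), so it did not pass the threshold.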

How the results depend on the processing

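The 10 members and 3 related genes gave 1192 values in 4 comparisons under the alternatives. Of these 1105 kept direction and side of the threshold, 47 lost and 6 gained a call, and 34 changed sign. At 9 weeks 2 members were called, among 539 features of the array. With only the livers compared this count was 0, where 1 feature was called. With 1 liver left out it lay between 0 and 3. It was 0 without wildtype replicate 2 or LiSel1lKO replicate 2 or 3, where 80, 30 and 18 features were called. Without LiSel1lKO replicate 1 it was 3, where 1178 were called. In wildtype ageing 1 member was called, among 672 features. The count was 0 with only the livers compared (255 features called) and 0 with plate column as a block (487), and 0 to 1 with 1 liver left out. At 3 weeks and in the interaction it was 0 under every alternative run. Over the whole array, same-numbered livers did not deviate together (18 correlations of deviations between -0.013 and 0.0769). These are taken over all features, so they do not settle whether such livers share more than a number. With the replicate block the counts were 2, 0, 0 and 1, but the adjusted p of the genotype effect at 9 weeks became 0.111 for Lpl and 0.0825 for Slc27a5, and that of Tm6sf2 in wildtype ageing 0.0525. The filter on low values removed Cidea.

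Signs changed only for differences that were not called. Quantile normalization gave Cidea 0.0078 at 9 weeks, 0.02 in the interaction and -0.02 in ageing. The replicate block gave Cideb 0.0033 and Slc27a5 -0.0096 at 3 weeks. Without the 3-week LiSel1lKO replicates 3 and 4 the 3-week values were -0.04 for Pparg, 0.72 for Plin4, 0.14 for Plin5, 0.08 for Cidea, -0.04 for Lpl and -0.03 for Slc27a5, and the interaction was -0.27 for Plin4 and -0.24 for Fabp5. The livers left out had the least Sel1l of their group, and the cause was not tested. With 1 liver left out, values ranged at 9 weeks from -0.04 to 0.02 for Cidea. At 3 weeks they ranged from -0.81 to 0.17 for Plin4, -0.06 to 0.05 for Cidea, -0.07 to 0.0083 for Cideb, -0.04 to 0.34 for Lpl and -0.0096 to 0.05 for Slc27a5. The interaction of Cidea ranged from -0.07 to 0.05. In wildtype ageing they ranged from -0.46 to 0.007 for Plin2, -0.55 to 0.28 for Plin4, -0.03 to 0.04 for Cidea and -1.23 to 0.01 for Fabp5. Groups of 3 or 4 livers and the missing detection calls limit all values.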
